A study of Mus musculus with 16 samples.

Results

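The genes described here encode the MHC class I heavy chains H2-K1 and H2-D1, the light chain B2m and the proteins that prepare and load their peptides: the transporter subunits Tap1 and Tap2, the loading factor Tapbp (tapasin), the inducible proteasome subunits Psmb8 and Psmb9, and the aminopeptidase Erap1. The list named 9 genes, of which 8 were matched by symbol to a row among the 50600 genes of the count tables, and Psmb9 was not analysed here. Their RNA was measured allele by allele in clones of an F1 mouse hybrid, whose mother was 129Sv and whose father was Cast/EiJ. The Cast allele is thus the paternal allele in every clone, and strain and parent of origin cannot be told apart. A difference between the alleles is called a strain difference or strain bias below with this limit. There were 16 RNA-seq libraries of 12 clones. Astrocytes, obtained from neural progenitor cells (NPCs) by treatment with BMP4, were represented by 1 poly(A) library for each of the clones 129, C2, G4, mC3 and mE6. Poly(A) NPCs were represented by 1 library for each of the clones F5, mG2 and mG6, and the NPC clones Ch3, Ch5, Ch7 and Ch8 had 2 ribosomal RNA-depleted libraries each. Clones 129, C2, G4 and F5 were female and the others male. Every clone came from embryonic stem cells of the same hybrid cross by expansion of a single cell, and the labels name no interferon treatment. The astrocyte clones are not the clones of the poly(A) NPC libraries, so a difference between cell types is here also a difference between clones, and the Ch clones differ from the others by RNA preparation as well.

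MHC class I molecules carry peptides of the cell's own proteins to its surface, where cytotoxic T cells read them. The proteasome cuts proteins into peptides, the Tap1 and Tap2 transporter moves these into the endoplasmic reticulum, Erap1 trims them, and tapasin holds the heavy chain and B2m beside the transporter until a peptide fits. In most tissues interferon raises these genes together, and neural cells are known for low class I levels at rest. The heavy chain genes are among the most polymorphic of the mouse genome.

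The promoters of both heavy chain genes are shown because these genes stood apart from all other members in their allelic ratio, and that of B2m because it encodes their partner and did not. Each line is the 250 bases before an annotated start in the RefSeq reference (GRCm38.p6), 5′ to 3′ on the strand of the gene. The windows are chr17:34000334-34000583 (minus strand) for H2-K1, chr17:35262844-35263093 (plus strand) for H2-D1 and chr2:122147437-122147686 (plus strand) for B2m. H2-K1 had another annotated start, whose window, chr17:34000348-34000597, held the same matches and is not shown. Both H2-K1 windows lie inside the span of the gene given below. Capitals mark matches, on either strand, to GGGNATTCC (an NF-kB-type element), TGACGC (the core of the element called site alpha) and a GAAA repeat with 2 bases between (an interferon response type of element).
H2-K1: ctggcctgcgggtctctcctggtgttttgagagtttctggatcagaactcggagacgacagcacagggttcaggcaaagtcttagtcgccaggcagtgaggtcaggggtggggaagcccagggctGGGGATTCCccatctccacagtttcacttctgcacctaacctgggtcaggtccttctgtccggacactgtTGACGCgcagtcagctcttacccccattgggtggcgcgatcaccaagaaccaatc
H2-D1: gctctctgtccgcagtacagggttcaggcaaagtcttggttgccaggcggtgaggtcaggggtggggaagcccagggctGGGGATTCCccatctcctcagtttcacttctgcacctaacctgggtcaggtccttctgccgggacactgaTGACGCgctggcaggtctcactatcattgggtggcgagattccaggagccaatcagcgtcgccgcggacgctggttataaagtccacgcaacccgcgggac
B2m: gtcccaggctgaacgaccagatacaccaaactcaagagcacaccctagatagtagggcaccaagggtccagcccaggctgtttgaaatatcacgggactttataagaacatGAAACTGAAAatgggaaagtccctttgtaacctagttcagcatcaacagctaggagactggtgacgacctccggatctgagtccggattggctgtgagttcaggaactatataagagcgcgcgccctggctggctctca

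GGGNATTCC was found before H2-K1 and H2-D1 and in 0.645% of 32851 promoter windows of this length, and TGACGC was found before the same 2 genes and in 6.12% of the windows. In both promoters the first letters of the matches lay 70 bases apart, and the stretch from one to the end of the other was identical at 72 of 76 positions. The GAAA repeat stood 139 bases before the start of B2m and in 2.98% of windows. Neither heavy chain window matched it, but so exact a pattern can miss looser elements of its type. Psmb8 held the repeat with 3 bases between, found in 2.38% of windows, and TTCNNNGAA (a STAT-type element), found in 7.02%. None of these 5 motifs was found before Tap1, Tapbp or Erap1, and Tap2 had no window. These letters are those of the reference strain. The motifs were chosen with the sequences in view, and the matches are descriptions of sequence only.

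Depth set the precision of each allelic ratio. The astrocyte libraries held 78257443 to 93963293 reads assigned to genes, the poly(A) NPC libraries 69925081 to 105892734 and the ribosomal RNA-depleted libraries 20871111 to 30920672. Reads that covered a strain difference, here called allele-specific, made up 33.4 to 34.8%, 30.5 to 31.8% and 18.9 to 21.1% of these. In male clones, which carry no Cast X chromosome, 0.0882 to 0.295% of allele-specific reads on the X were given to Cast, which measures false assignment. The label astrocytes was checked against markers: 6 of 6 astrocyte markers were detected, of which Gfap (log2 difference 8.45), Aqp4 (5.37) and Slc1a2 (3.52) were called higher in astrocytes than in poly(A) NPCs by edgeR, S100b and Slc1a3 were not called, and Aldh1l1 was called lower (-1.55, adjusted p = 0.0366). Together they had a summed level of 1052 to 3808 counts per 1000000 reads (CPM), against 872 to 1509 CPM in the poly(A) NPCs. The 5 NPC markers summed to 203 to 560 CPM in astrocytes and to 2643 to 2937 CPM in poly(A) NPCs. Microglia and blood cell markers summed to 5.11 to 20.3 CPM in astrocytes and to 0.321 to 0.587 CPM in poly(A) NPCs, nearly all of it from Tmem119 and Csf1r. Tmem119 was called higher in astrocytes (log2 difference 5.62, edgeR adjusted p = 0.00192), and Csf1r was not called (1.88, adjusted p = 0.0849). Ptprc, Cx3cr1, Aif1 and Itgam were the 4 of 6 markers under 1 CPM in every astrocyte clone. Fibroblast markers summed to 3.94 to 208 CPM in astrocytes and to 2.92 to 13.5 CPM in poly(A) NPCs, most of it from Col1a1 in the astrocytes. Col1a1 was called higher there (log2 difference 6.59, edgeR adjusted p = 0.0186), while Col3a1 was not called (-2.60, adjusted p = 0.0747). Neuron markers summed to 10.8 to 22.2 CPM in astrocytes and 2.70 to 5.55 CPM in poly(A) NPCs. Snap25 was called higher (log2 difference 4.09, edgeR adjusted p = 0.0346), while Syt1 (1.78, adjusted p = 0.236) and Rbfox3 (-1.80, adjusted p = 0.241) were not called. Oligodendrocyte markers summed to 7.09 to 13.2 CPM in astrocytes against 3.44 to 6.80 CPM in poly(A) NPCs. Endothelial markers summed to 1.74 CPM at most and embryonic stem cell markers to 1.98 CPM at most in these groups. The part of these other cell types in the differences between the cell types was not tested.

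B2m was by far the most abundant member, and Psmb8 was close to absent. Scaled by exon length, B2m reached 118 ± 27.2 CPM per kilobase (SD, n = 5 clones) in astrocytes, followed by Tapbp with 22.99 ± 4.78 and Erap1 with 6.03 ± 2.19 CPM per kilobase. Tap2, Tap1, H2-K1 and H2-D1 followed with means of 2.97, 2.66, 2.21 and 1.47 CPM per kilobase, in which each gene overlapped the next. Psmb8 was last at 0.141 ± 0.164 CPM per kilobase. In poly(A) NPCs the order was B2m, Tapbp, Tap1, Erap1, H2-K1, Tap2, H2-D1 and Psmb8, in which the ranges of Tap1 and Erap1, of H2-K1 and Tap2, and of Tap2 and H2-D1 overlapped. Tap1 thus stood above Erap1, H2-K1 and Tap2 in NPCs, with 5.78 ± 0.643 CPM per kilobase (SD, n = 3 clones), and below Erap1 and Tap2 in astrocytes. Both heavy chain genes were listed far below their light chain in every group.

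**Figure D1:**
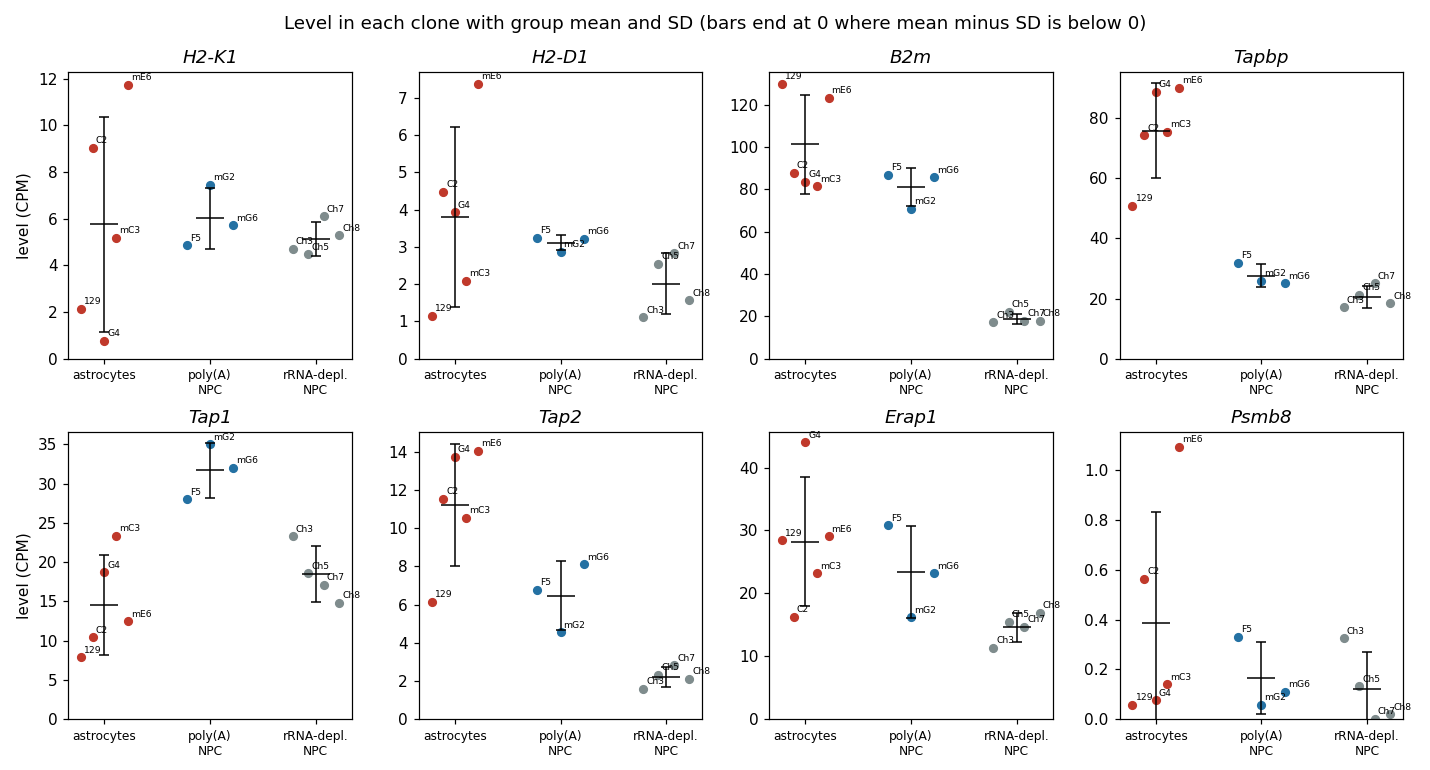
Level of each member in CPM (vertical axis, starting at 0) in the 12 clones, by group, with clone names beside the points and the group mean ± SD in black. Tapbp lay between 50.7 and 89.98 CPM in the 5 astrocyte clones and at or below 32.0 CPM in every NPC clone, while H2-K1 ran from 0.760 to 11.7 CPM among astrocyte clones alone.

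H2-K1, a classical heavy chain gene on chromosome 17 (GRCm38.p6, 33996012 to 34000619), was read almost wholly from the 129 allele. Its Cast share of allele-specific reads (% Cast) was 5.97% in clone 129, 9.21% in C2, 6.92% in mC3 and 4.58% in mE6 among astrocytes. It was 17.4% in F5, 6.67% in mG2 and 11.1% in mG6 among poly(A) NPCs, and 2.99% in Ch3, 16.9% in Ch5, 10.5% in Ch7 and 11.2% in Ch8. Over the 11 clones with at least 20 allele-specific reads the mean was 9.41% ± 4.67 (SD), and 9 of these clones were monoallelic for 129 by the usual limits, under 15% Cast. The fit over all 12 clones gave a log2 ratio of Cast over 129 of -3.04 ± 0.56 (SE, edgeR adjusted p = 0.000826). An exact sign-flip permutation test over the 11 clones gave p = 0.000977, the smallest it can give. The clone left out of the mean and of this test was G4, whose 18 reads, all Cast, fell short of 20.

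Clone G4 was the exception. All 18 of its allele-specific H2-K1 reads were Cast, with a 95% Wilson interval of 82.4 to 100% for % Cast, and none was 129, which allows a 129 share of up to 16.7%. Its H2-K1 level, 0.760 CPM, was the lowest of the 12 clones, against 2.13 CPM in clone 129, 9.03 CPM in C2, 5.18 CPM in mC3 and 11.7 CPM in mE6. Counted per 1000000 allele-specific reads (RPM), the Cast allele stood at 0.671 in G4 and at 0.133, 0.785, 0.330 and 0.554 in these 4 clones, so it was within their range. The 129 allele stood at 0 in G4 and at 2.09, 7.74, 4.44 and 11.5 RPM in the same clones. The low level of G4 thus came with loss of the 129 reads and a Cast count like that of the other clones. The genes around H2-K1 stayed biallelic in G4, with 46.7% Cast for Rps18, 45.7% for Vps52 and 45.6% for Ring1, and the median over 122 genes between 29 and 40 Mb was 48.7%. This clone has a single library, so the ratio has no replicate beyond its counting interval.

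H2-D1, the second heavy chain gene (chromosome 17, 35263094 to 35267497), was 129 in every clone, G4 included. % Cast was 5.0% in clone 129, 1.39% in C2, 7.46% in G4, 7.41% in mC3 and 1.01% in mE6. It was 5.0% in F5, 9.80% in mG2 and 1.61% in mG6. Of the Ch clones, Ch5 had 7.41% of 27 reads, Ch8 had 8.33% of 12 reads, and Ch7 had 0 of 32 reads from Cast, which allows up to 9.38%. Ch3 had 0 of 10 reads, which allows up to 30.0%. All 10 clones with at least 20 reads were monoallelic for 129, with a mean of 4.61% ± 3.41 (SD). The log2 ratio was -4.52 ± 0.37 (SE, edgeR adjusted p = 1.22e-06), the 81st by size among 11317 genes tested, and that of H2-K1 was the 170th. The exact sign-flip permutation test over the 10 clones gave p = 0.00195, the smallest it can give. The 129 allele of H2-D1 varied between clones from 0.630 RPM in clone 129 to 6.03 RPM in mE6.

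**Figure D2:**
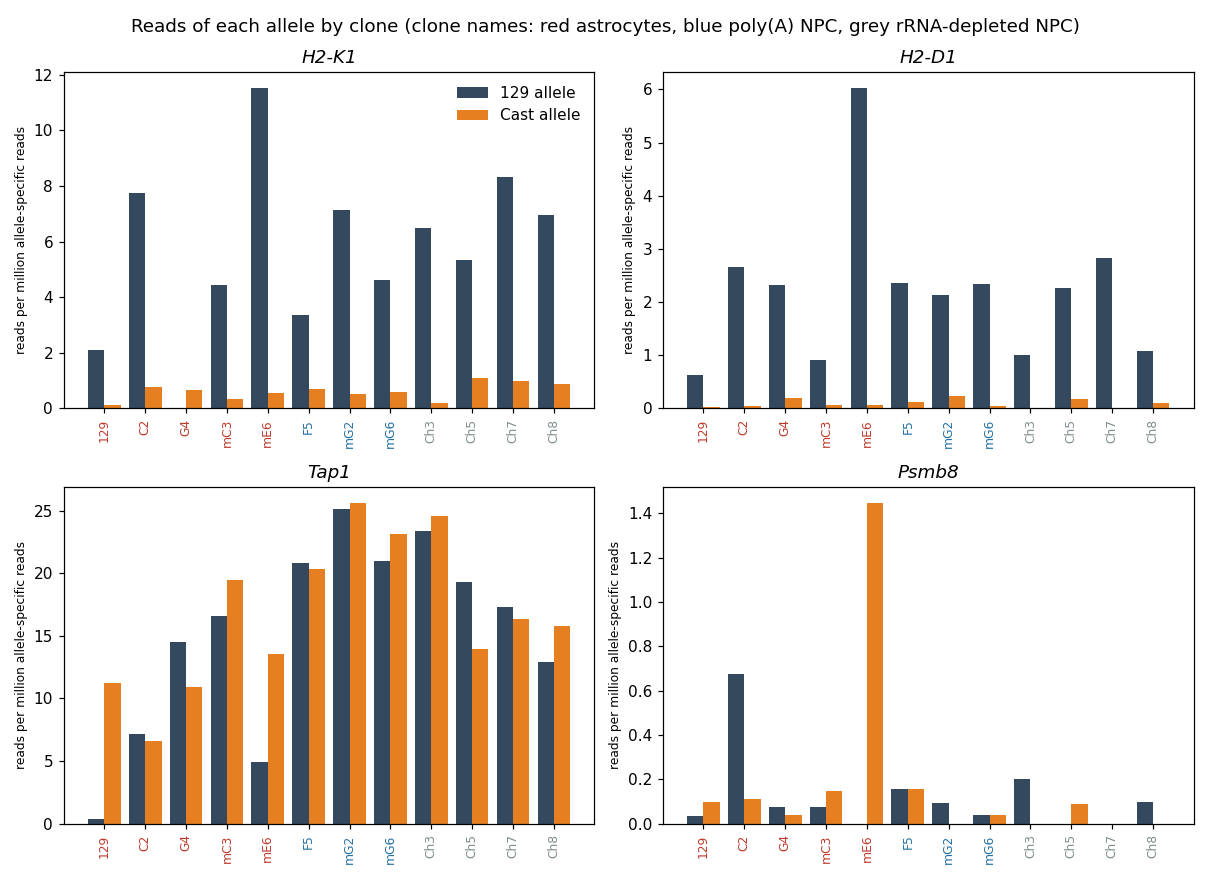
Reads of the 129 allele (dark) and the Cast allele (orange) per 1000000 allele-specific reads (vertical axes, starting at 0) in each of the 12 clones for H2-K1, H2-D1, Tap1 and Psmb8. The dark bar of H2-K1 is absent in G4, that of Tap1 is down to 0.365 in clone 129, and Psmb8 is high only on the Cast allele of mE6, at 1.44.

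How reads of such polymorphic genes map could bear on these ratios. The genome used for alignment was masked at known single-base differences between the strains, and reads with more differences, insertions or deletions may not align or may align to a related gene. Allele-specific reads made up 31.9% of all H2-K1 reads in the poly(A) libraries, at the 38.6th percentile of 14246 genes with at least 500 reads, and 23.7% of H2-D1 reads, at the 26.9th percentile. The median gene had 38.2%. In G4, where every H2-K1 read with an assigned allele was Cast, the share was 29.5%, within the 25.6 to 35.6% of the other clones. Among the class I paralogs, 10.9% of H2-T22, 9.97% of H2-Q7 and 0.970% of H2-T23 reads were allele-specific. H2-T23 thus gave 24 such reads of 2475, and its ratio cannot be read. The same direction was measured for H2-Q4, where 5 clones had at least 20 reads and 2.06 to 19.004% Cast. H2-Q7 went the other way: both clones with at least 20 reads had none from the 129 allele, 0 of 29 in mE6 and 0 of 36 in F5, which allows 129 shares of up to 10.3% and 8.33%. The part of failed alignment of Cast reads in the low ratios of H2-K1, H2-D1 and H2-Q4 was not tested.

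The neighbouring genes were read from both alleles. The 16 nearest tested genes on either side of the chromosome 17 members were monoallelic in 0 clones. Those next to H2-K1 had median ratios of 45.9% Cast for Rps18, 43.2% for Vps52 and 44.9% for Ring1, and 31.2% for H2-Ke6 over 8 clones. All of these leaned to 129 in the strain fit, where 43.5% of all genes were called. Their log2 ratios were -0.26, -0.73, -0.33 and -1.06 (edgeR adjusted p = 0.000187 to 0.00387). Vps52 stood at 22.1 to 28.8% Cast in the Ch clones. Other neighbours leaned to Cast, among them Cchcr1 (log2 ratio 0.54, edgeR adjusted p = 0.000126) and H2-DMa (0.95, adjusted p = 0.000127). Next to H2-D1, Ddx39b had a median of 46.2% Cast and Atp6v1g2 of 52.3%. Over chromosome 17 the median of each clone lay between 48.3 and 49.8% Cast.

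B2m, on chromosome 2 (122147687 to 122153082), was biallelic in 12 of 12 clones. % Cast ran from 51.2 to 56.8% in astrocytes, from 54.6 to 55.8% in poly(A) NPCs and from 51.1 to 55.6% in the Ch clones, above 50% in 12 of 12 clones. The shift was small and steady, with a log2 ratio of 0.24 ± 0.04 (SE, edgeR adjusted p = 0.000168). Its precision rested on 3275 to 8308 allele-specific reads in each poly(A) library. Called strain differences of any size were common: 43.5% of the 11317 genes tested were called, 1880 higher on Cast and 3038 higher on 129. These became 2450 and 2376 when the 2 alleles were scaled to each other. By size, the log2 ratio of B2m was the 5507th of the genes tested. Of the 7 members tested 5 were called, 3 higher on Cast and 2 on 129, a share to be read against that background. The median log2 ratio was 0.14 over the members and -0.05 over all genes tested.

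Erap1 and Tapbp were the other members with a small Cast excess. Erap1, on chromosome 13 (74639573 to 74693205), was biallelic in 12 of 12 clones, from 47.9% Cast in Ch3 to 63.3% in mG6, with a log2 ratio of 0.31 ± 0.07 (SE, edgeR adjusted p = 0.00306). Tapbp, on chromosome 17 (33919478 to 33929290), was biallelic in 12 of 12 clones between 48.3 and 57.1% Cast. Its log2 ratio of 0.14 ± 0.05 (SE) had an edgeR adjusted p = 0.0259, and the call was lost in the 8 poly(A) clones alone, where the log2 ratio was 0.08 with an adjusted p = 0.215. Tap1 (log2 ratio 0.34, adjusted p = 0.481) and Tap2 (log2 ratio -0.31, adjusted p = 0.235) were not called by edgeR. For these a strain difference was not detectable beside the spread between clones. The ratio of Tap1 was 0.09 without clone 129 and up to 0.41 with another clone left out, and 0.55 in the poly(A) clones alone.

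**Figure D3:**
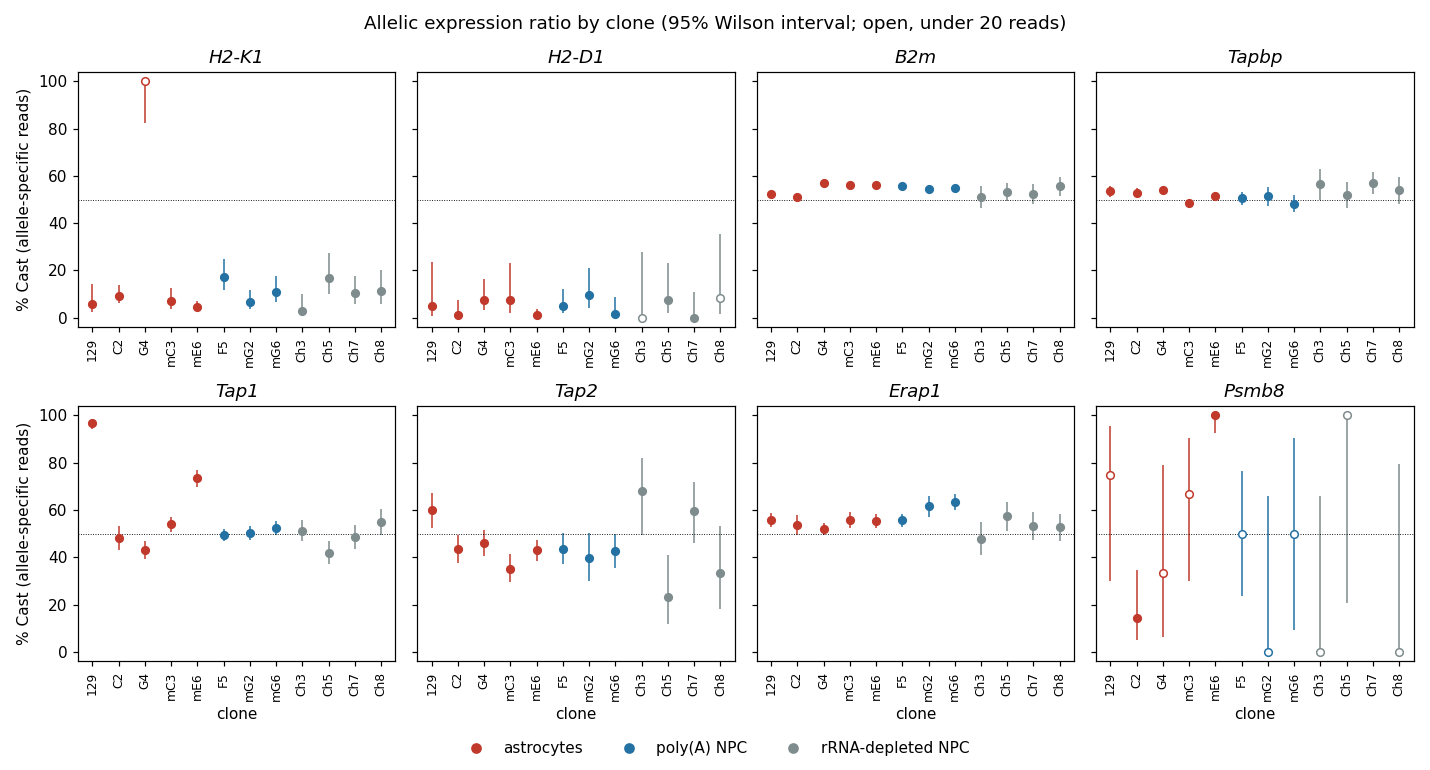
% Cast of allele-specific reads (vertical axis, dotted line at 50%) in each of the 12 clones for the 8 members, with 95% Wilson intervals and open symbols under 20 reads. H2-K1 and H2-D1 lie under 18% except for G4 at 100%, Tap1 leaves the middle at 96.8% in clone 129 and 73.4% in mE6, and B2m, Tapbp and Erap1 stay between 47.9 and 63.3%.

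Tap1, the first transporter subunit (chromosome 17, 34187556 to 34197225), was biallelic in 10 of 12 clones, and the other two were astrocytes. In poly(A) NPCs it was 49.4% Cast in F5, 50.5% in mG2 and 52.4% in mG6. The Ch clones had 51.2% in Ch3, 42.0% in Ch5, 48.6% in Ch7 and 54.9% in Ch8. Astrocyte clones had 48.1% in C2, 43.0% in G4 and 54.0% in mC3, but 73.4% in mE6 (Wilson interval 69.7 to 76.8%, 601 reads) and 96.8% in clone 129 (94.4 to 98.2%, 349 reads). In clone 129 the Cast allele stood at 11.2 RPM, within the 6.62 to 19.4 of the other astrocyte clones. Its 129 allele stood at 0.365 RPM, against 4.92 to 16.6. Clone 129 had the lowest Tap1 level of all 12 clones, 7.86 CPM. Tap2, which starts 7254 bases after the end of Tap1, was 59.9% Cast in the same library (52.2 to 67.1%), and Brd2, H2-DMa and Pbx2 on either side were 39.6, 71.8 and 57.6% Cast, none of them monoallelic.

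Tap2 (chromosome 17, 34204479 to 34216321) was biallelic in 9 of 12 clones. Its poly(A) ratios ran from 35.2% Cast in mC3 to 59.9% in clone 129. In the Ch clones they ran from 23.3% in Ch5 to 67.9% in Ch3, but only 24 to 52 reads stood behind each of those, with Wilson intervals of 11.8 to 40.9% and 49.3 to 82.1% at these ends. The intervals do not overlap, but they cover counting error only, and the libraries of each of these clones differed. The 2 libraries of Ch3 gave 28.6% of 7 reads and 81.0% of 21 reads. Those of Ch5 gave 42.9% of 14 reads and 6.25% of 16 reads.

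Psmb8, an interferon-inducible catalytic subunit (chromosome 17, 34198195 to 34201454), was at 1.10 CPM or less in every clone. Its levels in astrocytes were 0.0567 CPM in clone 129, 0.563 in C2, 0.0748 in G4, 0.141 in mC3 and 1.10 in mE6. Poly(A) NPCs had 0.331 CPM in F5, 0.0572 in mG2 and 0.110 in mG6. Where it could be read, it came mostly from 1 allele, and not from the same one. In mE6 all 47 allele-specific reads were Cast, which allows a 129 share of up to 6.38%, while in C2 3 of 21 reads were Cast, or 14.3% (Wilson interval 4.98 to 34.6%). All other clones had at most 10 such reads, and the 10 of F5 were 5 from each allele.

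Between cell types, Tapbp was the member whose RNA level changed. It stood at 50.7, 74.2, 88.6, 75.5 and 89.98 CPM in the astrocyte clones 129, C2, G4, mC3 and mE6, and at 32.0, 25.9 and 25.1 CPM in F5, mG2 and mG6. The groups did not overlap, but the share of all genes without overlap was not counted. Tapbp was 2.86-fold higher in astrocytes, a log2 difference of 1.52 ± 0.25 (SE, edgeR adjusted p = 0.00418), and stayed between 1.40 and 1.65 with each library left out in turn. Called differences were frequent, with 25.5% of 18192 genes passing, 13% higher and 12.6% lower in astrocytes. Of the 8 members tested 1 was called, and their median log2 difference was 0.37 against 0.08 over all genes. Fewer cells of a type and less RNA per cell cannot be told apart in such bulk libraries.

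Tap1 went the other way without passing. It stood at 7.86, 10.4, 18.7, 23.3 and 12.4 CPM in the astrocyte clones and at 27.99, 35.01 and 31.98 CPM in the NPC clones. The log2 difference was -1.06 ± 0.35 (SE, edgeR adjusted p = 0.0538), and the call depended on the setting: the adjusted p was 0.0213 with DESeq2 and 0.0451 with scaling by library size alone, and 0.149 at most over the alternatives. Tap2 stood at 6.16 to 14.05 CPM in astrocytes and 4.55 to 8.11 CPM in NPCs, with a log2 difference of 0.85 ± 0.37 (SE, edgeR adjusted p = 0.122) that passed only without clone 129 (adjusted p = 0.0389). The 2 subunits of the transporter therefore differed in sign, although neither passed.

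The remaining members were not called between the cell types. B2m had a mean of 101 ± 23.4 CPM (SD, n = 5 clones) in astrocytes and 81.2 ± 8.95 CPM (SD, n = 3 clones) in NPCs, a log2 difference of 0.36 ± 0.21 (SE, edgeR adjusted p = 0.228). Erap1 differed by 0.32 ± 0.35 (SE, edgeR adjusted p = 0.540), H2-D1 by 0.37 ± 0.58 (adjusted p = 0.683), Psmb8 by 1.27 ± 1.10 (adjusted p = 0.430) and H2-K1 by 0.02 ± 0.76 (adjusted p = 0.988) on the log2 scale. With 1 library left out these values moved widely: Psmb8 from 0.33 without mE6 to 2.26 without F5, Erap1 from 0.04 without G4 to 0.56 without F5, B2m from 0.23 without mE6 to 0.44 without mC3, and H2-D1 from -0.05 without mE6 to 0.61. For both heavy chains the spread was wider among the 5 astrocyte clones than among the 3 poly(A) NPC clones. H2-K1 ranged 15.4-fold in astrocytes and 1.53-fold in poly(A) NPCs, and H2-D1 ranged 6.44-fold and 1.13-fold. The range of H2-K1 in astrocytes started from G4 at 0.760 CPM, with clone 129 next at 2.13 CPM. Astrocyte clones were not in the same order for both, since G4 was lowest for H2-K1 and clone 129 for H2-D1, with mE6 highest for each. Among the Ch clones H2-D1 also ranged, from 1.12 CPM in Ch3 to 2.83 CPM in Ch7.

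**Figure D4:**
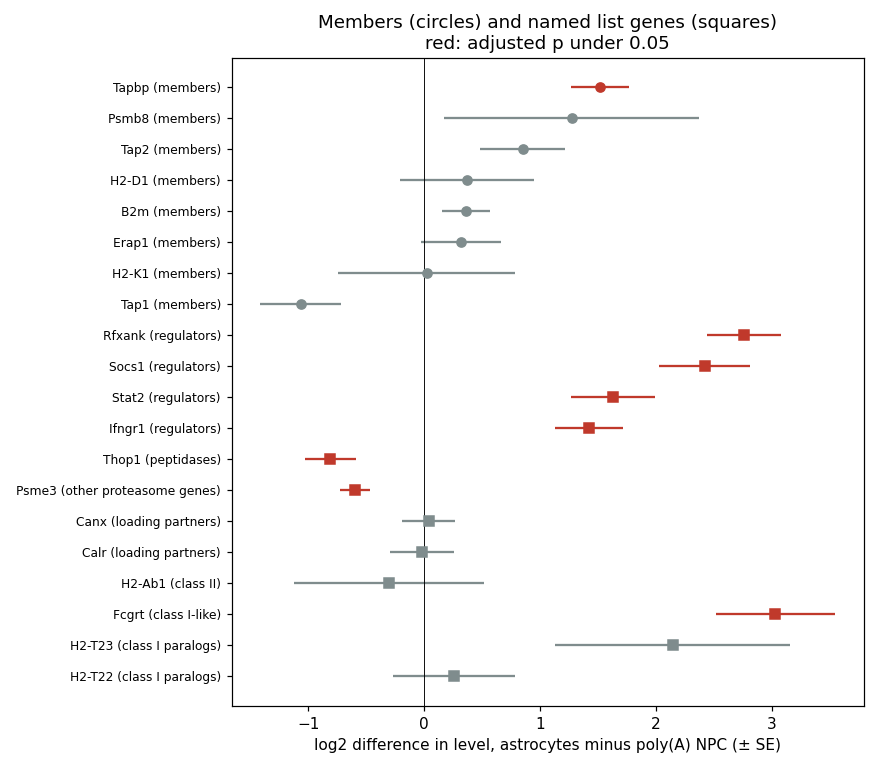
Log2 difference in level between astrocytes and poly(A) NPCs (horizontal axis, ± SE) for the 8 members (circles) and for list genes named by rule (squares), in red where the edgeR adjusted p passed 0.05. Tapbp at 1.52 is the only red circle, and the named regulators lie between 1.42 and 2.76.

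Other genes of the pathway were followed as fixed lists. Over all lists 8 of 45 genes tested were called between astrocytes and poly(A) NPCs, against 25.5% of all genes. Of 18 regulators tested 5 rose in astrocytes and 0 fell, a share near that background, with a median log2 difference of 0.34. Rfxank, a subunit of the RFX complex that binds MHC promoters, rose by 2.76 ± 0.32 on the log2 scale (SE, edgeR adjusted p = 0.000975), from 17.002 ± 3.78 to 111 ± 34.4 CPM. Socs1, an inhibitor of interferon receptor signalling, rose by 2.42 ± 0.39 (adjusted p = 0.0042), but from 0.357 CPM to only 1.84 CPM. Stat2, a transducer of type I interferon, rose by 1.63 ± 0.36 (adjusted p = 0.0136) and the interferon gamma receptor chain Ifngr1 by 1.42 ± 0.30 (adjusted p = 0.0109). The edgeR call of Stat2 was lost without any 1 of the poly(A) NPC libraries (adjusted p = 0.0516 without F5, 0.0616 without mG2 and 0.0505 without mG6), and that of Ifngr1 without mG2 (adjusted p = 0.0547). Nlrc5, the transactivator of class I genes, was at 0.159 to 0.860 CPM in astrocytes and 0.400 to 1.09 CPM in poly(A) NPCs.

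Of 6 class I paralogs tested 0 were called by edgeR, 0 at an unadjusted p under 0.05, and 1 by DESeq2. The most abundant were H2-T22, with a log2 difference of 0.26 ± 0.52 (SE, adjusted p = 0.760), and H2-T23, with 2.14 ± 1.01 (adjusted p = 0.153). H2-T23 ran from 0.386 to 12.7 CPM among astrocyte clones. These genes are near copies of each other, and how their reads were shared out is uncertain. Of 4 class I-like genes 1 rose: Fcgrt, the heavy chain of the neonatal Fc receptor and a partner of B2m, by 3.03 ± 0.51 (SE, edgeR adjusted p = 0.00502), from 9.75 ± 5.98 to 77.0 ± 27.7 CPM. Of 5 loading partners 0 were called by edgeR, unadjusted edgeR p-values or DESeq2, among them the chaperones Canx (log2 difference 0.04, adjusted p = 0.919) and Calr (-0.02, adjusted p = 0.969). Of 4 peptidases 1 fell, the cytosolic Thop1, which fell by 0.81 on the log2 scale (adjusted p = 0.0281). Of 7 other proteasome genes 1 fell, the regulator Psme3, which fell by 0.60 (adjusted p = 0.0132). The edgeR call of Thop1 was lost without G4 (adjusted p = 0.0504), F5 (0.111, log2 difference -0.64) or mG2 (0.0964), and that of Psme3 without mG2 (0.0652). Of 5 class II genes only H2-Ab1 had enough reads to be tested, at a log2 difference of -0.30 (adjusted p = 0.820).

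In the strain comparison of the same lists, Mr1 had the largest called ratio. Of 16 regulators tested 5 were called, 4 of them higher on 129 and 1 on Cast. Stat2 had a log2 ratio of Cast over 129 of -0.56 ± 0.09 (SE, edgeR adjusted p = 0.000431), Ifngr2 -0.45 ± 0.06 (adjusted p = 4.9e-05) and Ifnar1 -0.24 ± 0.05 (adjusted p = 0.00158). Mr1, a class I-like molecule that presents vitamin B metabolites, had -2.04 ± 0.27 (adjusted p = 7.13e-05) and 5.13 to 35.3% Cast over 11 clones, and was the 1 called of 3 class I-like genes. Of the other lists, 1 of 4 loading partners (Pdia3, log2 ratio 0.20), 1 of 4 peptidases (Thop1, 0.26), 3 of 7 other proteasome genes (Psmb6 at -0.37, Psmb7 at 0.21, Psme2 at -0.11) and 0 of 1 class I paralogs (H2-T22, log2 ratio -1.18, adjusted p = 0.172) were called. The edgeR call of Pdia3 was lost in the poly(A) clones alone (log2 ratio 0.09, adjusted p = 0.0705). That of Psme2 was lost there (-0.09, adjusted p = 0.183), with the alleles scaled to each other (-0.06, adjusted p = 0.304), without a read minimum (adjusted p = 0.0613), and without C2, G4, mC3, F5, Ch5 or Ch8 (adjusted p = 0.0536 to 0.0717). In all, 11 of 35 list genes passed, against the 43.5% of all genes.

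Whether the strain bias itself differed between astrocytes and poly(A) NPCs was tested as an interaction. None of 7 members passed, with 83 of 11697 genes (0.71%) called, and 0 of 40 list genes. Of the list genes 6 had an unadjusted p under 0.05, and DESeq2 called 1 list gene and no member. Of the members, Erap1 had the lowest adjusted p, with 51.9 to 55.8% Cast in the 5 astrocyte clones and 55.6 to 63.3% in the 3 NPC clones. The log2 difference was -0.34 ± 0.12 (SE, edgeR adjusted p = 0.254), and Erap1 was the 1 member that passed 0.05 before adjustment. On simulated data this fit recovered 55 of 200 genes changed by a log2 of 1, so that moderate differences were mostly below its reach.

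Among the ribosomal RNA-depleted NPC clones, 4 of the 7 members tested differed between clones, where 16.6% of 17095 genes did. H2-D1 had the widest range of these. Its 2 libraries read 1.01 and 1.20 CPM in Ch3, 2.19 and 2.96 in Ch5, 2.75 and 2.92 in Ch7, and 1.57 and 1.56 in Ch8, so Ch3 was lowest. The highest clone exceeded the lowest by a log2 of 1.36 (edgeR adjusted p = 0.0161). Tap1 ranged over 0.69 (adjusted p = 0.0167), with 23.9 and 22.9 CPM in Ch3 and 12.9 and 16.8 CPM in Ch8. Tapbp ranged over 0.56 (adjusted p = 0.0173), from 17.5 and 16.8 CPM in Ch3 to 24.3 and 26.0 CPM in Ch7, and Erap1 over 0.56 (adjusted p = 0.0417). Each of these 4 calls was lost when 1 of certain libraries was left out: H2-D1 without either library of Ch3 or Ch7 (adjusted p = 0.0612 to 0.0700), Tap1 without either of Ch3 (0.0603 and 0.124), Tapbp without replicate 2 of Ch3 or either of Ch7 (0.0613 to 0.140), and Erap1 without any library of Ch3, Ch7 or Ch8 (0.0650 to 0.176). H2-K1 (log2 range 0.56, adjusted p = 0.341), Tap2 (0.85, adjusted p = 0.159) and B2m (0.27, adjusted p = 0.285) were not called, and Psmb8 had too few reads to be tested.

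Of the list genes, 3 of 41 differed between the Ch clones. H2-T22 had a log2 range of 4.68 (edgeR adjusted p = 9.23e-05), from 0.113 CPM in Ch5 and 0.405 in Ch8 to 1.48 in Ch7 and 2.84 in Ch3. Few of its reads were allele-specific, but 14 of 14 were 129 in Ch3 and 6 of 7 were Cast in Ch7. It was also unbalanced in poly(A) clones, with 0 of 31 reads from Cast in clone 129, which allows up to 9.68%, and 27 of 29 from Cast in F5. Psmb10, the third inducible proteasome subunit, had a log2 range of 1.01 (adjusted p = 0.0045, and 0.0524 without replicate 2 of Ch3), and Cd1d1, which presents lipids, 0.68 (adjusted p = 0.00615). Of 5 loading partners, 4 peptidases and 17 regulators tested here 0 were called by edgeR or DESeq2, with 2, 0 and 3 at an unadjusted p under 0.05: Hspa5 (0.30, adjusted p = 0.110), Canx (0.22, adjusted p = 0.261), Thop1 (0.24, adjusted p = 0.393), Tpp2 (0.14, adjusted p = 0.716), Jak2 (0.30, adjusted p = 0.0702) and Ifnar1 (0.11, adjusted p = 0.697) were the most abundant of them.

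The same members were lower in the Ch libraries than in poly(A) NPCs to very different degrees, given here without a test since preparation and clone cannot be told apart. B2m stood at 17.2 to 22.1 CPM in the Ch clones and 70.8 to 86.9 CPM in poly(A) NPCs. Tap2 stood at 1.58 to 2.81 against 4.55 to 8.11 CPM, whereas H2-K1 stood at 4.47 to 6.11 against 4.86 to 7.45 CPM. The allelic ratios of B2m, Tapbp and Tap1 in the Ch clones were within 10 percentage points of 50%.

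The genes whose level followed a member most closely were sought over the 12 clones, after the mean of each of the 3 groups had been subtracted, among 12106 genes. H2-K1 was followed by Spock2 (Pearson's r = 0.97, Spearman's rho = 0.95), Acat1 (r = 0.95), Zfp612 (r = 0.94), Iqcc (r = 0.94) and Pim3 (r = 0.93). By rank the likeness was weaker for Acat1 (rho = 0.71), Zfp612 (rho = 0.74) and Iqcc (rho = 0.71), but not for Pim3 (rho = 0.94). B2m was followed by Tmem161b (r = 0.93, rho = 0.92), Atp6v1g1 (r = 0.92), Ndufs1 (r = 0.91), Blzf1 (r = 0.91) and Acer3 (r = 0.90). Tap1 was followed by Scap (r = 0.90, rho = 0.87), Zfp618 (r = 0.90), Cadps (r = 0.90), Ddah1 (r = 0.89) and Manea (r = 0.89). No gene of the fixed lists was among these 15. The values are descriptions of 12 points that share library depth and preparation within groups, chosen as the highest of many.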

How the data were processed

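Poly(A) or ribosomal RNA-depleted RNA of 12 clones was sequenced in 16 libraries. The authors aligned reads to a mouse genome (GRCm38) masked at strain differences with TopHat2 (2.1.0) and Bowtie2, assigned them with SNPsplit, and counted fragments per gene by strand with featureCounts (1.5.1). The deposited counts are not normalized and give, for each of 50600 genes, all reads and those of either allele. The deposited allelic ratio, a fraction, was not used, since ratios were computed from the counts. Reads shared by near-identical class I genes are uncertain.

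Members and lists were chosen with earlier results of these data known. Symbols came from a gene name table and positions from RefSeq. Levels were counts per 1000000 of all reads (CPM), scaled by GENCODE exon length where stated. Ratios needed at least 20 allele-specific reads, and each Ch clone is the sum of its 2 libraries. Under 15% or over 85% Cast was called monoallelic and 35 to 65% biallelic. Intervals are 95% Wilson and cover counting error only, as do limits for a count of 0 (3 counts).

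Levels (5 astrocyte against 3 poly(A) NPC libraries; 4 Ch clones of 2 libraries) were tested with edgeR (4.0.16), trimmed-mean scaling and the quasi-likelihood test. Strain bias was tested with allele counts of all 12 clones with the clone as a term, and its difference between cell types in the 8 poly(A) clones, also with edgeR. P-values were two-sided and Benjamini-Hochberg adjusted over all genes tested, with a threshold of 0.05. Nothing says that libraries of a Ch clone are separate cultures, so that p-values there measure the spread between libraries. Genes were named by rule: the members; for each list up to 4 called genes with the largest change, or the 2 most abundant; the 5 most alike in level; and the 2 nearest tested genes on each side. List genes outside this rule (Nlrc5, Rfx5, Rfxap, H2-Q4, H2-Q7) were added with their values seen. The values of 1 list gene that the rule names are not reported here. The fits were tested on simulated data. For the level comparison 200 of 200 genes changed by a log2 of 2 were recovered. The changed genes had ample counts and a fixed dispersion, so this recovery does not carry over to genes with few reads or a wide spread between clones. Alternatives were other scalings, filters, DESeq2 (1.42.0), sex as a covariate and leaving out each library.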

Additional observations from a re-analysis of the deposited data

Results flagged for a closer look

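The levels of the 8 members and the ratios of 7 of them were each examined over the astrocyte clones for a clone set far apart from the others (Dixon's test). Of these 15 sets 0 held such a clone. With at most 5 clones in a set this test has little reach, and a further shifted clone can hide the first. Tap1, at 96.8% Cast in clone 129 and 73.4% in mE6, was not flagged. The ratio of H2-K1 in G4 was not among the values examined, since it rests on fewer than 20 reads.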

How the results depend on the processing

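The counts of called genes were recomputed under other settings. For astrocytes against poly(A) NPCs, 4644 became 6280 with DESeq2 and 4019 without a filter, and ran from 2269 to 4849 with 1 library left out, lowest without mG2 (2667 without F5 and 3030 without mG6). For strain bias, 4918 became 5600 with DESeq2, 5216 without a read minimum and 4584 in the poly(A) clones, and ran from 4539 to 5000 with a clone left out. For its difference between cell types, 83 became 49 without a read minimum and 651 with DESeq2, and 5 to 90 with a clone left out. For the Ch clones, 2834 became 4361 without a filter and 1509 to 3245 with a library left out.

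The strain bias of H2-K1, H2-D1, B2m and Erap1 kept its sign and call under all 19 alternatives each, H2-K1 between -3.36 and -2.90 and H2-D1 between -4.71 and -4.27 on the log2 scale. Tapbp kept its rise in astrocytes under all 13. Among uncalled differences between cell types, that of H2-K1 turned to -0.0024 with DESeq2, -0.0023 with relative log scaling, -0.059 by library size and -0.0076 without a filter, and ran from -0.45 to 0.28 with a library left out. Canx turned to -0.010 by library size and Calr to 0.023 with sex as a covariate. With a library left out, H2-D1 ran from -0.053 (without mE6) to 0.61, Calr from -0.16 to 0.11, Canx from -0.063 to 0.12, H2-Ab1 from -0.80 to 0.0022 and H2-T22 from -0.13 to 0.53. The difference in strain bias of H2-K1 turned to -0.059 with DESeq2 and ran from -0.84 (without G4) to 0.50, that of H2-D1 from -1.09 to 0.013, of B2m from -0.067 to 0.014 and of Tap2 from -0.0072 to 0.35. The causes were not tested.

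Replicate numbers of the Ch clones share only a number: correlations of replicate differences between clones ran from -0.18 to 0.28 over 6 pairs, and a fit with the replicate block called 3391 genes. No replicate numbers could pair the astrocytes with the poly(A) NPCs, which are different clones. Heavy chain ratios rest on few reads, and those of Psmb8 and the paralogs mostly could not be read.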
